A study of Rattus norvegicus with 2 samples.

Results

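The 7 genes described here are the precursors of 3 families of opioid peptides, Pdyn, Penk and Pnoc, and the 4 receptors of the opioid family, Oprk1, Oprm1, Oprd1 and Oprl1. They were found by their gene names among the 22777 genes with a listed mRNA, and they hold 11 of the 26324 mRNA transcripts. Expression was measured by RNA-seq in the hypothalamus of Sprague Dawley rats at 2 stages. The prepubertal group consisted of 3 female rats at postnatal day 25, and the pubertal group of 3 female rats at postnatal day 35, in the first estrus. No rat carried a transgene or received a treatment according to the labels. The deposited values come as a single column for each stage, and the sources used here do not say how the rats were pooled or averaged. Each stage therefore counts as 1 library, no value has a replicate check and no p-value is given. Age, stage of puberty and library cannot be told apart in this design.

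Opioid peptides are cut from larger precursor proteins and act on receptors that couple to inhibitory G proteins, which lower cyclic AMP, open inward rectifier potassium channels and restrain transmitter release. Dynorphins, from Pdyn, prefer the kappa receptor encoded by Oprk1. Enkephalins, from Penk, prefer the delta receptor (Oprd1) and the mu receptor (Oprm1), and nociceptin, from Pnoc, acts on the receptor encoded by Oprl1. In the arcuate nucleus dynorphin is made by the KNDy neurons, which also make kisspeptin and neurokinin B, and opioid tone is known as a brake on the release of GnRH.

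Expression is given as FPKM, a fragment count corrected for transcript length and library size, summed over the transcripts of a gene. The FPKM of genes with a single transcript fell on whole multiples of one value per transcript length, from which the number of fragments behind each gene was derived. The depth obtained in this way was about 20800000 fragments for the prepubertal library and 16200000 for the pubertal library. All 7 genes came out at whole numbers in both libraries, within 0.00414 of a fragment. Intervals are exact 95% intervals of these fragment numbers and cover counting error only, not the spread between rats. Amplified copies of a fragment are not independent molecules. For genes with several transcripts, such as Oprm1 and Oprl1, the intervals also leave out the error of dividing fragments between transcripts, on which their FPKM depends.

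Penk was the highest of the 7 genes in both libraries and Oprd1 the lowest, and the order of the 7 genes by FPKM was the same before and at puberty. In the prepubertal library Penk stood at 89.2 FPKM, rank 1317 of the 14029 genes that reached 1 FPKM in at least 1 library. It was followed by Oprl1 at 41.2, Pdyn at 21.5, Pnoc at 15.4, Oprm1 at 12.9, Oprk1 at 8.26 and Oprd1 at 0.788 FPKM. In the pubertal library the levels in the same order were 96.5, 46.6, 23.3, 15.7, 12.3, 8.19 and 0.741 FPKM. Neighbours in this order were separated beyond their counting intervals in both libraries, except Pnoc and Oprm1, whose intervals overlapped (13.5 to 17.4 against 11.8 to 14.1 FPKM in the prepubertal library). The step from Oprk1 down to Oprd1 was 10.5-fold before puberty and 11.1-fold at puberty, and Oprd1 was the 1 gene of the 7 below 1 FPKM in both.

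**Figure D1:**
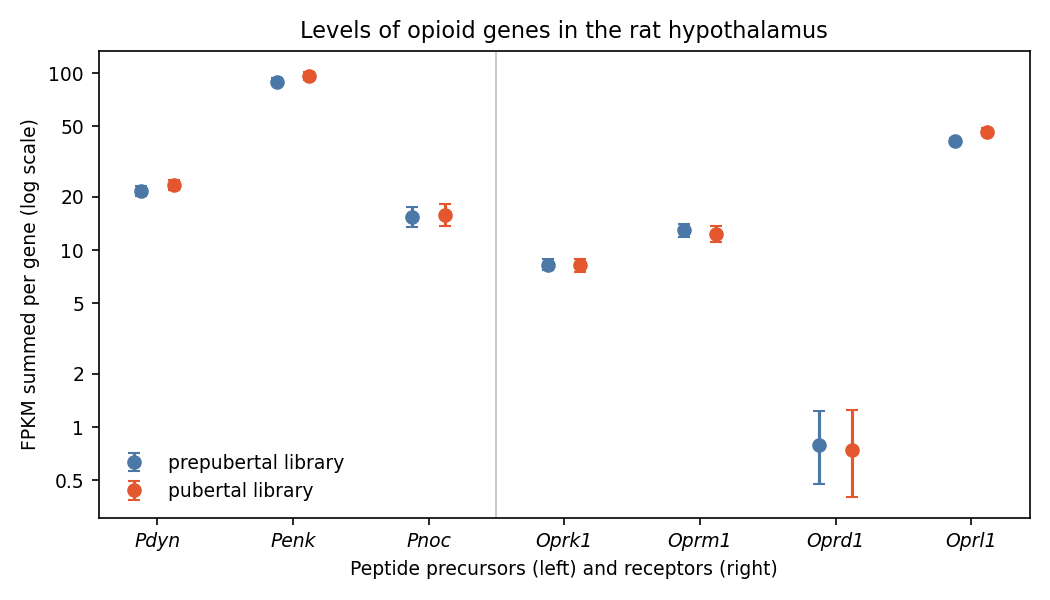
FPKM per gene on a log axis in the prepubertal (blue) and pubertal (red) library, 1 library per stage, with bars for the exact 95% counting interval. The order of the genes is the same in both libraries, from Penk at 89.2 and 96.5 FPKM to Oprd1 at 0.788 and 0.741 FPKM.

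None of the 7 genes differed between the libraries by 1.5-fold or more. Of the 6 that reached 1 FPKM, 0 were past 1.5-fold against 4.65% of all genes at this level, and 0 past 2-fold against 1.10%. With shares this small and 6 genes, a count of 0 is not a result about the opioid genes. These folds and the log2 ratios below were taken after adding 1 to each FPKM, with the pubertal library in the numerator, so the ratios of low genes are drawn towards 0. The log2 ratios of the 7 genes lay between -0.07 (Oprm1) and 0.17 (Oprl1), with a median of 0.03. Over all 14029 genes the median was -0.01 and the quartiles were -0.17 and 0.14. The 3 precursors lay above 0 and, of the receptors, Oprl1 above and the other 3 below. Scaling the pubertal library to equal medians or equal Actb multiplies all genes by one factor. It moved the median of all genes to 0.04 and 0.36. The 7 genes kept their side of that median, which a common factor makes nearly certain in advance. With equal medians 5 ratios were therefore above 0 and 2 below, Oprk1 going to 0.04, and with equal Actb all 7 were above 0. Centring by transcript length changed the sign of Oprk1, to 0.11, and of Pnoc, to -0.04.

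**Figure D2:**
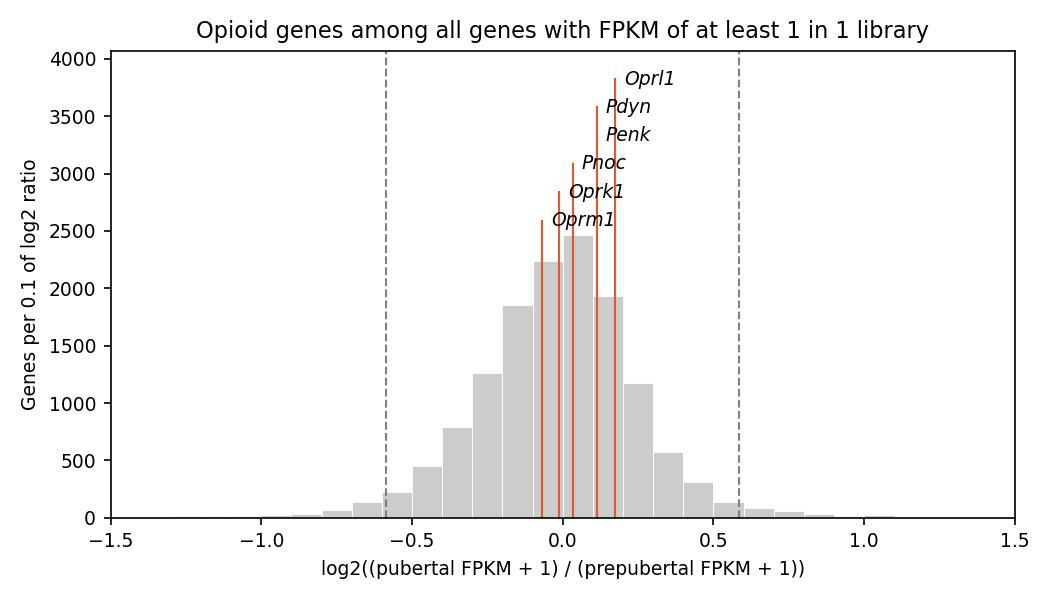
Number of genes per 0.1 of log2 ratio among the 14029 genes with FPKM of at least 1 in 1 library (grey), with red lines at the ratios of the 6 opioid genes that reach this level and dashed lines at 1.5-fold. The 6 lines lie close to the middle of the distribution, from -0.07 to 0.17, and those of Pdyn and Penk coincide at 0.11.

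Of the precursors, Pdyn was measured with 974 fragments before puberty and 827 at puberty, from a transcript of 2439 nt (ENSRNOG00000026036). Its FPKM went from 21.5 to 23.3, a fold of 1.09 without an added constant (95% counting interval 0.988 to 1.19), and the interval includes 1. Penk (ENSRNOG00000008943, 1284 nt) rested on 1903 and 1616 fragments. Its FPKM went from 89.2 to 96.5, a fold of 1.08 (1.01 to 1.16). The folds of Pdyn and Penk lie close together, and the ratio of Penk to Pdyn was 4.15 before puberty and 4.14 at puberty. Pnoc (ENSRNOG00000014231, 1015 nt) rested on 242 and 195 fragments and went from 15.4 to 15.7 FPKM, a fold of 1.02 (0.844 to 1.24). The 3 precursors together summed to 126 FPKM before puberty and 136 at puberty, of which Penk made up 70.8% and 71.2%.

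RefSeq windows before the transcription start were given for 3 of the 7 genes, Pdyn, Oprm1 and Oprd1. Those of Pdyn and Oprd1 are shown as the start regions of a precursor at a moderate level and of the receptor at the lowest level. Each sequence holds the 250 bases before the start in build GRCr8, read 5′ to 3′ on the minus strand. Capitals mark the motifs searched on both strands, namely the TATA box with the letters TATAAA, the cyclic AMP response element with the letters TGACGTCA, and the GC box with the letters GGGCGG. None of the matches overlap.
Pdyn, chr3:137366504-137366753: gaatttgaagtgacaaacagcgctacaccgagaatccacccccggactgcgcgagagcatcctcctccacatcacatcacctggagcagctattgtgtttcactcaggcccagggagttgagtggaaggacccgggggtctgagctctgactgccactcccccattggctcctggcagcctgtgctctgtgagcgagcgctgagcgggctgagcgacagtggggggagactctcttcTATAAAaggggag
Oprd1, chr5:149625000-149625249: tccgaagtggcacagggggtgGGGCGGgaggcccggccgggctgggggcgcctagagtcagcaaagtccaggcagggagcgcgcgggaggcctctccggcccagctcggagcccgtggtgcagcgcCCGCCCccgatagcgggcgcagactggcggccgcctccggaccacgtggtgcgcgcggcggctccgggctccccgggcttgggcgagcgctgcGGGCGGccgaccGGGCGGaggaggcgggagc
The Pdyn window has 1 TATAAA close to the start and a GC content of 59.2%. The Oprd1 window has 4 GC boxes, no TATAAA and a GC content of 79.6%, above that of 98.8% of all windows. Both Oprm1 windows, not shown, hold none of the 3 motifs, with a GC content of 36.4% and 58.4%. The windows shown are thus those with matches. Among all 33469 windows of this length TATAAA was found in 12.9%, TGACGTCA in 1.59% and GGGCGG in 30.5%. The files hold no measurement of binding or chromatin at these starts, so the matches are a description of letters only.

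Among the receptors, Oprl1 had the largest ratio of the 7 genes. It was measured with 2317 and 2022 fragments (ENSRNOG00000016768), and its FPKM went from 41.2 to 46.6, a fold of 1.13 (1.06 to 1.20). A log2 ratio of this size or larger, in either direction, was found for 45.7% of the genes at 1 FPKM or more. Oprm1 (ENSRNOG00000018191) went from 12.9 to 12.3 FPKM on 510 and 358 fragments, a fold of 0.950 (0.828 to 1.09). Oprk1 (ENSRNOG00000007647, 4735 nt) went from 8.26 to 8.19 FPKM on 768 and 595 fragments, a fold of 0.991 (0.889 to 1.10). For Oprm1 and Oprk1 the intervals include 1 and leave out a 1.5-fold difference in either direction. Oprd1 (ENSRNOG00000010531, 1417 nt) rested on 19 and 14 fragments, and its fold of 0.940 has an interval from 0.436 to 1.98, so a 1.5-fold difference in either direction was not detectable at this depth. The 4 receptors together summed to 63.2 FPKM before puberty and 67.8 at puberty, and Oprl1 made up 65.2% and 68.7% of these sums.

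The counting interval excluded 1 for 2 of the 6 opioid genes at 1 FPKM or more, Penk and Oprl1, both higher in the pubertal library, and included 1 for Oprd1. The same rule was met, in the higher direction, by 19.4% of the 13253 genes at 1 FPKM or more with transcripts of at least 500 nt, and in either direction by 43.7%. With a background of this size and 6 genes the count is not a result about the opioid genes, and an interval that excludes 1 compares 2 libraries, not the stages.

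**Figure D3:**
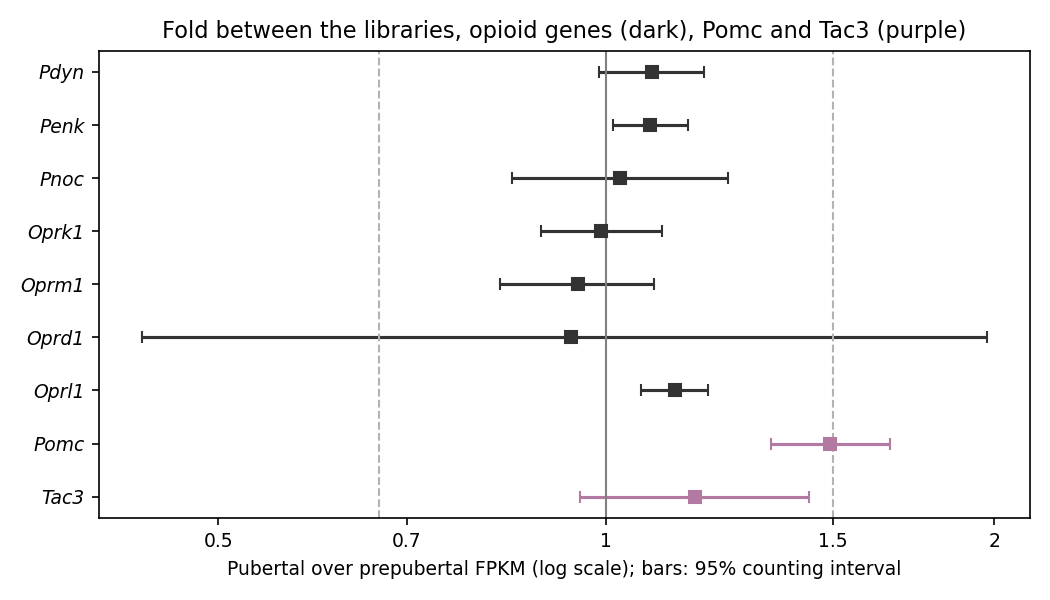
Fold of the FPKM in the pubertal over the prepubertal library on a log axis, with the exact 95% counting interval, for the 7 opioid genes (dark) and for Pomc and Tac3 (purple). Dashed lines mark 1.5-fold, the bar of Oprd1 is the widest (0.436 to 1.98), and the interval of Pomc (1.34 to 1.66) lies above those of Pdyn, Penk and Pnoc, the highest of which ends at 1.24.

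The precursors were also set beside their receptors by FPKM. Pdyn was 2.60 times Oprk1 before puberty and 2.85 times at puberty. Pnoc was 0.373 and 0.338 times Oprl1, the 1 pair of precursor and receptor in which the receptor was the higher transcript. Penk was 6.90 and 7.86 times Oprm1, and 113 and 130 times Oprd1, the latter resting on the 19 and 14 fragments of Oprd1. Peptide and receptor protein were not measured here, and the receptors can sit on cells or fibres away from the cell bodies that hold the transcripts of the precursors.

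Both Oprm1 and Oprl1 have 3 listed transcripts, and the files divide the fragments of a gene between them by estimation. Of the Oprm1 transcripts, that of 2397 nt (ENSRNOT00000051837) had 9.88 FPKM before puberty and 8.10 at puberty. That of 1377 nt (ENSRNOT00000045144) was listed at 3.04 and 4.18 FPKM, and that of 1389 nt (ENSRNOT00000024682) at 0 in both. The longer transcript therefore made up 76.5% of the Oprm1 level before puberty and 66.0% at puberty, while the sum of the gene was nearly level. Among 1677 genes with several transcripts and at least 1 FPKM in both libraries, the share of the main transcript moved by more than these 10.5 percentage points in 19.1%. For Oprl1 the 3008 nt transcript (ENSRNOT00000045845) carried 97.0% and 94.2% of the level, at 39.9 and 43.8 FPKM. Its other transcripts, of 2652 and 655 nt, went together from 1.25 to 2.72 FPKM, and the estimate assigned them 34.4 and 62.7 fragments. The values of single transcripts did not come out at whole fragments and are less certain than the sums.

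**Figure D4:**
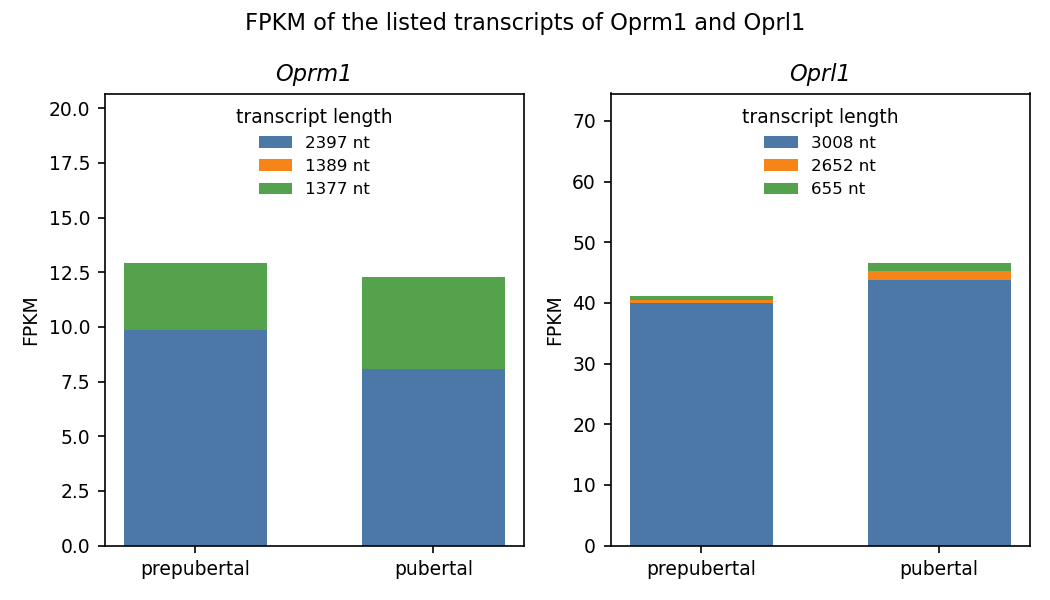
Stacked bars of the FPKM of each listed transcript of Oprm1 (left) and Oprl1 (right) in both libraries, coloured by transcript length. The Oprm1 sum is 12.9 and 12.3 FPKM with a smaller part for the 2397 nt transcript at puberty, and the 3008 nt transcript makes up most of Oprl1 in both.

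Pomc, the precursor of beta-endorphin and of melanocortins, differed more between the libraries than the 3 other opioid precursors. It went from 45.8 FPKM (642 fragments) to 68.3 FPKM (754 fragments), a fold of 1.49 with a counting interval of 1.34 to 1.66, and a log2 ratio of 0.57. It falls short of 1.5-fold as deposited and passes it with the libraries scaled to equal medians (0.62) or equal Actb (0.97), both of which raise all pubertal values, while centring by transcript length lowers it to 0.49. Pomc is also made in the pituitary. The 7 pituitary markers summed to 31.8 and 44.5 FPKM, 5 of them higher and 2 lower at puberty, with 2 at 0 in the prepubertal library. Cga made up most of the sums at 24.6 and 30.0 FPKM. Of the 5 markers that reached 1 FPKM, 2 were past 2-fold, against 1.10% of all genes at this level. These were Gh1, from 0.872 to 4.09 FPKM on 10 and 37 fragments, and Prl, from 0 to 3.40 FPKM on 0 and 41 fragments. The part of the pituitary markers in the Pomc value was not tested. Among the 12 hypothalamic peptide genes of the marker list, Pomc included, 11 were higher and 1 lower at puberty, with a median log2 ratio of 0.31 against 0.11 for the 3 opioid precursors described above. Of all 14029 genes at 1 FPKM or more, 48.9% were higher. The 5 red blood cell markers were also all higher at puberty and summed to 6837 and 13083 FPKM. Of them 4 were past 1.5-fold, against 4.65% of all genes at 1 FPKM or more in either direction. Of the 6 immediate early genes 1 was higher and 5 lower. The part of these genes in the peptide values was not tested.

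The KNDy and GnRH list holds the genes that share neurons or a circuit with Pdyn. Of its 7 genes, 6 were higher and 1 lower at puberty, with a median log2 ratio of 0.17, beside the 48.9% higher among all genes. Kiss1, the kisspeptin gene, was past 1.5-fold, from 1.46 to 3.78 FPKM. This rests on about 12 and 26 fragments divided over 3 transcripts. These numbers and the interval of the fold, 1.26 to 5.64, are approximate, since 1 transcript is shorter than the 500 nt from which whole fragments were checked, and the interval reaches below 1.5. Tac3, which encodes neurokinin B, stood at 20.7 and 24.3 FPKM on 201 and 186 fragments, a fold of 1.17 (0.955 to 1.44). The prepubertal and pubertal FPKM of Tac3 thus lay near those of Pdyn, although Pdyn is also made outside KNDy neurons, among others in vasopressin neurons.

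The other genes of opioid signalling were taken from lists of enzymes, peptidases, transducers and regulators. Together with Pomc and the KNDy list they gave 46 gene entries for 45 different symbols, as Lnpep is entered more than once. Of these entries 24 were higher and 22 lower at puberty, with a median log2 ratio of 0.03. Of the 45 entries at 1 FPKM or more, 3 were at least 1.5-fold apart, all higher at puberty, against 4.65% of all genes at this level in either direction. These 3 were Kiss1, Rtp4 and Kcnj5. Rtp4, which encodes a chaperone of mu and delta receptors and is also induced by interferon, went from 1.76 to 4.75 FPKM on 61 and 129 fragments, a log2 ratio of 1.06 and a fold of 2.70 (1.98 to 3.72). Kcnj5, a subunit of the potassium channels that opioid receptors open, went from 1.95 to 3.88 FPKM on 34 and 53 fragments, a log2 ratio of 0.72 and a fold of 1.98 (1.27 to 3.15), whose interval reaches below 1.5.

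By list, the 4 processing genes found split evenly, 2 higher and 2 lower. Cpe, the carboxypeptidase that trims the cut peptides, was highest at 854 and 610 FPKM, a log2 ratio of -0.49. The 8 entries for peptidases that degrade opioid peptides cover 7 different symbols, since Lnpep is listed under separate gene identifiers, both lower. Of these entries 2 were higher and 6 lower, with Npepps highest at 40.9 and 36.8 FPKM. Of the 14 genes for G proteins, cyclases and channels, 5 were higher and 9 lower, with a median of -0.21. Gnai2, an inhibitory G protein subunit, was the highest of them at 125 and 137 FPKM. Of the 12 genes that regulate the receptors, 8 were higher and 4 lower, with a median of 0.14, and Gprasp1, which sorts internalised receptors for degradation, was highest at 258 and 285 FPKM. Apart from Kcnj5 and Rtp4, no gene of these lists was 1.5-fold apart after 1 was added to each FPKM, and small ratios move with the scaling of the libraries as all genes do. Anpep, the peptidase aminopeptidase N, named after its values were seen, stayed below 1 FPKM at 0.566 and 0.181 on 36 and 9 fragments. Without the added constant its fold was 0.320 (0.135 to 0.676).

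**Figure D5:**
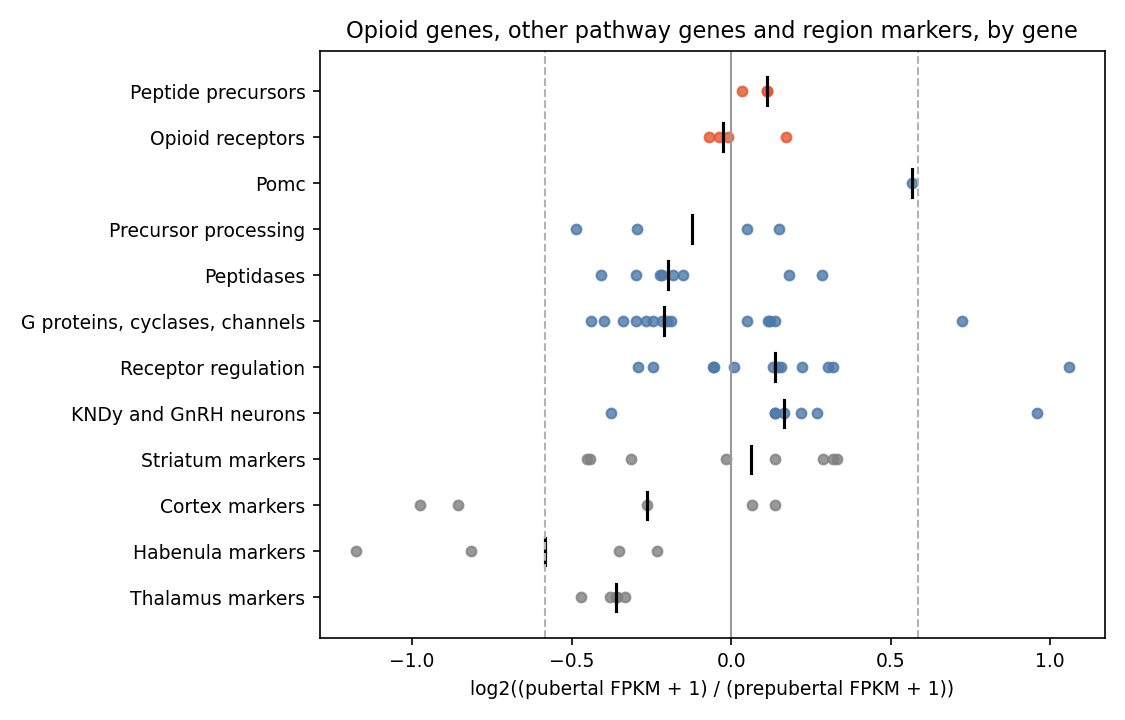
Log2 ratio of each gene (points) and the median of each list (black bar) for the opioid precursors and receptors (red), the other pathway lists (blue) and markers of neighbouring brain regions (grey), with dashed lines at 1.5-fold. The opioid genes lie between -0.07 and 0.17, and the habenula and thalamus markers all lie below 0.

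Regions next to the hypothalamus also express opioid genes, Penk and Pdyn in the striatum and Oprm1 in the habenula and thalamus. Markers of these regions were present in both libraries. The 8 striatum markers summed to 61.2 FPKM before puberty and 62.7 at puberty, 4 of them higher and 4 lower. The 4 habenula markers were all lower at puberty and summed to 13.6 and 5.85 FPKM, and the 5 thalamus markers were all lower and summed to 187 and 146 FPKM. The 5 cortex and hippocampus markers summed to 32.2 and 16.1 FPKM, 2 higher and 3 lower. Their part in the values of Oprm1, Penk and Pdyn was not tested. The hypothalamic markers were all detected in both libraries, 12 of 15 higher at puberty. In whole tissue, fewer cells of a type and less RNA per cell cannot be told apart.

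The 2 libraries allow no more than a crude measure of likeness. For Oprl1, the member with the largest absolute log2 ratio, the nearest genes by Euclidean distance of log2(FPKM + 1) over both libraries were Plcl2 at 41.0 and 46.5 FPKM, Tspan12 at 41.4 and 46.8 FPKM and Atp6v0e1 at 41.1 and 47.2 FPKM. As many as 66 genes lay within a distance of 0.1, so many genes share this pair of values.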

How the data were processed

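Rat hypothalamic RNA was depleted of ribosomal RNA and sequenced as strand-specific paired ends. Alignment was by TopHat and assembly by Scripture together with Cufflinks 2.1.1, and the authors deposited FPKM from Cuffdiff 2.1.1, with 1 column per stage. The labels name the rat build Rnor_5.0 and the paper an annotation of Rnor_6.0, and no coordinates of these builds are used here. The deposited table of the authors' comparison also holds fold changes, p-values and q-values, which were not used. Its gene names, transcript lengths and FPKM columns were used. lncRNAs were not analysed here.

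FPKM was summed per gene and log2((pubertal + 1) / (prepubertal + 1)) was computed. The FPKM of 1 fragment was taken as the value shared by at least 3 genes with a single transcript of one length, and 1 over this value was fitted as a line in the length over 18 and 19 lengths. Below 1000 fragments, 90.9% and 91.0% of genes with transcripts of at least 500 nt came out whole within 0.05. Fragment numbers have exact Poisson intervals, and folds have Clopper-Pearson intervals given the sum of both libraries. The derivation was tested on simulated data.

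The members and lists were chosen with earlier results of these data known. The genes named are the members, Pomc, Kiss1, Tac3, pathway genes at least 1.5-fold apart that reach 1 FPKM in a library, the highest gene of each list, and the 3 genes nearest to the member with the largest ratio. Anpep and 3 pituitary markers, Cga, Gh1 and Prl, were named outside this rule after their values were seen. Alternatives were a pseudocount of 0.1, scaling to equal medians or equal Actb, the highest transcript of a gene, the FPKM of the comparison table, centring within 10 classes of transcript length, and leaving out genes that stay below 1 FPKM. The software was Python 3.11.15 with scipy 1.17.1, numpy 2.4.6 and pandas 2.3.3, and matplotlib 3.10.9 for the plots.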

Additional observations from a re-analysis of the deposited data

How the results depend on the processing

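With 1 library per stage the spread between rats is unknown, and no paired analysis was possible because each stage has 1 column. No opioid gene reached 1.5-fold under any of the 7 alternatives, though with equal Actb Oprl1 came to a log2 ratio of 0.57, just short of it. The median log2 ratio of the opioid genes stayed between 0.03 and 0.09 in all alternatives but equal Actb. Multiplying the pubertal library by 1.32 to make Actb equal took it to 0.42. The median covers 7 genes, or 6 where genes below 1 FPKM were left out. The count of pathway genes past 1.5-fold was 3 in the main setting, 4 with equal medians, where Pomc was gained, and 10 with equal Actb. Kiss1, Rtp4 and Kcnj5 were among them each time. The share of all genes past 1.5-fold was not computed for the scaled settings. Their counts, of pathway and of opioid genes, therefore have no background beside them and are not read further. The Actb scaling moved the median of all genes to 0.36, and equal medians to 0.04. The opioid median lay 0.06 and 0.04 above these, and each of the 7 genes kept its side of the median of all genes under both. Both scalings multiply every gene by one factor, so this was nearly fixed in advance and is no sign of stability. Against 0, equal medians turned the sign of 1 gene (Oprk1), equal Actb of 3 (Oprk1, Oprm1 and Oprd1) and the length classes of 2 (Oprk1 and Pnoc). The length classes set the median of all genes to 0, so Oprk1 and Pnoc also crossed that median. When the highest transcript alone was taken, Oprm1 went to -0.26 and Oprl1 to 0.13. The FPKM of the comparison table were identical for the 11 transcripts. Depth limits Oprd1 most.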
